A study of Chromochloris zofingiensis with 14 samples.

Results

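The mitochondrial genes cob and cox1 of the unicellular green alga Chromochloris zofingiensis are described here together with 6 open reading frames annotated inside their spans, orfM226, orfM764, orfM369, orfM120, orfM131 and orfM265. These 8 genes were picked by name from the 22 genes of the mitochondrial sequence and the 15369 of the whole annotation. They were chosen by their annotated positions, because the 6 frames lie within the start and end of another gene. The series sampled cultures of a single strain in 14 growth conditions with 1 RNA library each, covering light level, darkness, loss of a nutrient, oxidative stress, glucose and loss of oxygen. Only the gene annotation of the series was analysed here. It holds positions of gene models and no value of any culture, so no level is given and no conditions are compared.

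The gene cob encodes cytochrome b, a membrane subunit of respiratory complex III, which passes electrons from quinol towards cytochrome c. The gene cox1 encodes the catalytic subunit of cytochrome c oxidase, complex IV, which reduces oxygen to water. In many algae, fungi and plants these genes are interrupted by mobile introns that carry a reading frame of their own. LAGLIDADG homing endonucleases, named after a conserved stretch of amino acids, cut DNA at copies of a gene that lack the intron and are typical of group I introns. Reverse transcriptases with maturase activity copy and help to splice the intron that encodes them and are typical of group II introns. The annotation does not state the group of any intron, and splicing was not measured here.

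All 5 introns of the mitochondrial genes lay in cob and cox1, 2 in cob and 3 in cox1. Each of the 5 held at least part of a reading frame. The frames together covered 5608 of the 7282 intron bases, 77.0%, and 1674 intron bases lay outside them. The models hold coding segments only, so intron means here what lies between consecutive coding segments. Of the 6 frames, 4 lay wholly inside 1 intron, and orfM226 and orfM369 began within the coding segment before it. All 22 mitochondrial models were made manually per the file's source column, and all lay on the plus strand, so every order below runs 5′ to 3′. Positions are bases of the mitochondrial sequence of the file's own assembly, counted from 1, and have no replicate or error.

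**Figure D1:**
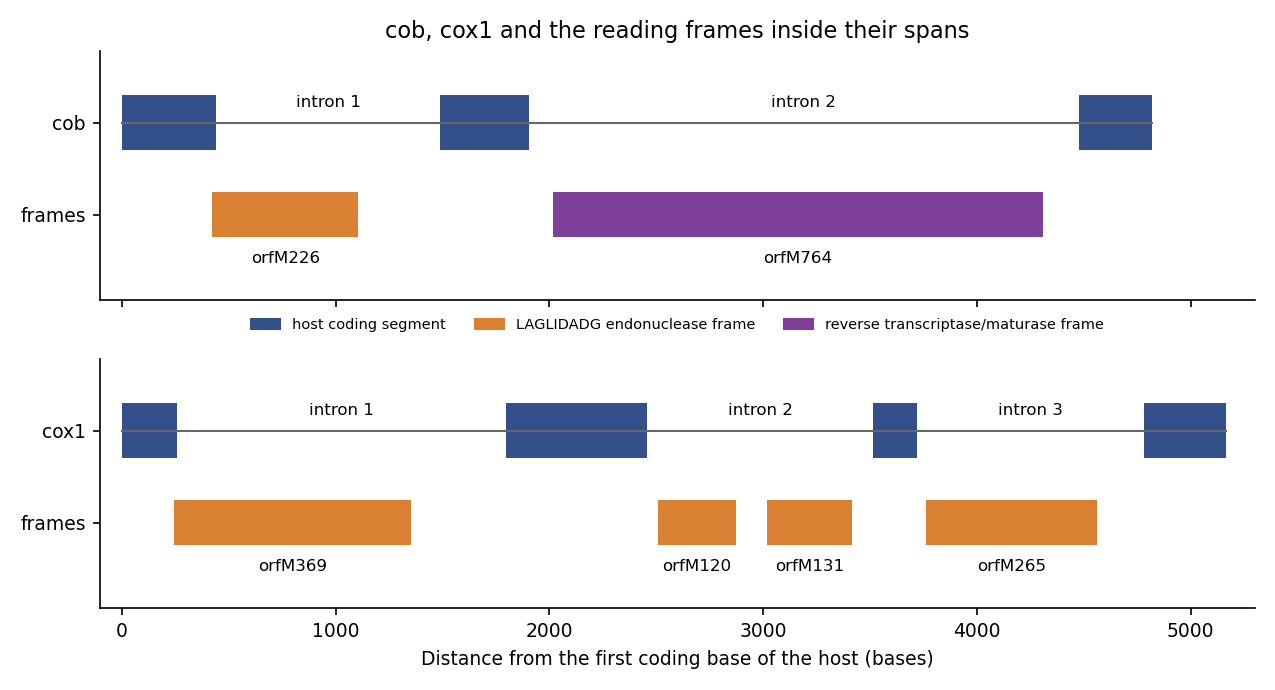
Coding segments of cob and cox1 (blue) and the reading frames inside their spans (orange for LAGLIDADG endonucleases, purple for the reverse transcriptase/maturase), against the distance in bases from the first coding base of each host. The frames orfM226 and orfM369 start 17 and 15 bases before the end of coding segment 1 of their hosts, and the other 4 frames stay inside an intron.

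The gene cob (CzMTg00010) ran from 1155 to 5974, a span of 4820 bases with 1197 coding bases in 3 segments, 399 codons with the last one included. Its introns took up 3623 bases, 75.2% of the span. Coding segment 1 (1155 to 1595) had 441 bases, segment 2 (2644 to 3057) had 414 and segment 3 (5633 to 5974) had 342. The coding region was thus cut into pieces of similar size, with intron 1 after codon 147 and intron 2 after codon 285. Intron 1 (1596 to 2643) had 1048 bases and intron 2 (3058 to 5632) had 2575, so the larger intron alone was longer than the coding region.

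The frame in cob intron 1 was orfM226 (CzMTg00020, 1579 to 2259), described in the file as a hypothetical LAGLIDADG homing endonuclease. It had 681 bases in 1 segment. Of these, 664 lay in the intron, of which they filled 63.4%, and 17 lay in coding segment 1 of cob. The frame left no intron base before it and 384 after it. It opened at base 2 of cob codon 142, so the 17 shared bases were read in a register of their own, offset by 1 base from the codons of cob.

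The frame in cob intron 2 was orfM764 (CzMTg00030, 3171 to 5462), described as a hypothetical reverse transcriptase/maturase, the 1 frame of this kind in the mitochondrion. Its 2292 bases were the longest coding region among the 22 mitochondrial genes. It was 1.91 times as long as the coding region of cob, and the other 5 frames were each shorter than the coding region of their host. It filled 89.0% of intron 2, with 113 intron bases before it and 170 after it. Its register was offset by 2 bases from cob segment 2.

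The gene cox1 (CzMTg00050) ran from 7223 to 12387, a span of 5165 bases with 1506 coding bases in 4 segments, 502 codons. Its introns took up 3659 bases, 70.8% of the span. The segments were less even than those of cob. Segment 1 (7223 to 7480) had 258 bases, segment 2 (9019 to 9681) had 663, segment 3 (10738 to 10941) had 204 and segment 4 (12007 to 12387) had 381. Segment 2 alone held 44.0% of the coding region and segment 3 held 13.5%. The introns followed codons 86, 307 and 375. Intron 1 (7481 to 9018) had 1538 bases, intron 2 (9682 to 10737) had 1056 and intron 3 (10942 to 12006) had 1065.

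The frame in cox1 intron 1 was orfM369 (CzMTg00053, 7466 to 8575), a hypothetical LAGLIDADG homing endonuclease per the file. With 1110 bases it was the longest of the LAGLIDADG frames. It filled 71.2% of the intron with 1095 bases and shared its opening 15 bases with coding segment 1 of cox1. Unlike orfM226, it opened at base 1 of a host codon, codon 82, and ran in the register of cox1 through the last 5 codons of the segment and on into the intron. The intron had 443 bases after the frame.

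Intron 2 of cox1 held a pair of short frames. The file describes orfM120 (CzMTg00057, 9733 to 10095) as a partial LAGLIDADG endonuclease of 363 bases. It describes orfM131 (CzMTg00060, 10241 to 10636) as a putative LAGLIDADG homing endonuclease of 396 bases. They lay 145 bases apart, and their registers differed by 1 base. Alone they filled 34.4% and 37.5% of the intron, and together 71.9%, close to the single frames of introns 1 and 3. Summed, they had 759 bases, 253 codons. The single LAGLIDADG frames had 370 codons in cox1 intron 1, 266 in cox1 intron 3 and 227 in cob intron 1. The intron had 51 bases before the pair and 101 after it.

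The frame in cox1 intron 3 was orfM265 (CzMTg00070, 10987 to 11784), a putative LAGLIDADG homing endonuclease of 798 bases per the file. It filled 74.9% of the intron, with 45 bases before it and 222 after it. It lay wholly inside the intron.

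**Figure D2:**
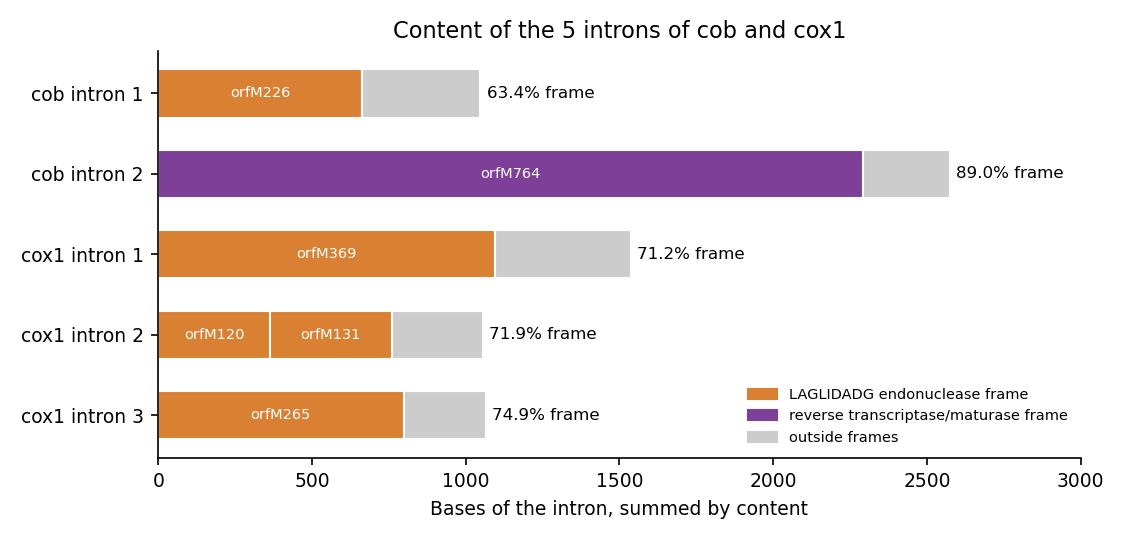
Bases of each of the 5 introns that belong to a reading frame (orange or purple) and to none (grey), summed by content and not in order along the intron. The filled share runs from 63.4% in cob intron 1 to 89.0% in cob intron 2, and the 3 introns of cox1 lie between 71.2% and 74.9%.

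The frames sat towards the 5′ side of their introns. Summed over the 5 introns, 209 bases lay before the frames, 145 between orfM120 and orfM131, and 1320 after them. More bases lay after the last frame than before the first in 5 of 5 introns. The difference was small in cob intron 2 (113 before, 170 after) and cox1 intron 2 (51 before, 101 after). For orfM226 and orfM369, which begin in a coding segment, the bases before were counted as 0.

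The register of each frame was compared with the codons of the host segment before its intron, read on past the segment's end. The frames orfM369, orfM120 and orfM265, the first frame of each cox1 intron, were in register with it, 3 of 6 frames. The others were offset, orfM226 by 1 base, orfM764 by 2 and orfM131 by 1. With only 3 possible registers, some frames can be in register without any tie to the host. Neither the count nor its grouping in cox1 was tested. Against the segment after the intron, orfM120 and orfM265 were again in register and orfM226 was too. Introns 2 and 3 of cox1 were the introns whose length was a multiple of 3, so a frame in register on one side of them is in register on the other. Whether a stop codon lies between a host segment and the frame behind it was not analysed here, since no sequence was used.

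All 5 introns fell between whole codons (phase 0), and every coding segment of cob and cox1 was a whole number of codons. Among the 60574 introns outside the mitochondrion, 52.9% were of phase 0. The length was a multiple of 3 in 2 of the 5 introns, against 33.0% of the introns elsewhere. No test was made on these 5 introns.

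The introns of cob and cox1 were 1048 to 2575 bases long, with a median of 1065 bases, against a median of 260 bases over the 60574 introns outside the mitochondrion, of which 90% lay between 106 and 428 bases. All 5 had 1000 bases or more, as had 31 of the introns elsewhere, 0.0512%. For cob intron 2, 1 intron elsewhere was as long or longer, with 2899 bases, and for cox1 intron 1 there were 4. Both hosts were chosen for holding other genes, which needs room, so these ranks only describe them. Models outside the mitochondrion come mostly from the gene prediction program AUGUSTUS, and whether it limits intron length was not tested. The intron share of the span was 75.2% in cob and 70.8% in cox1, against a median of 46.6% over the other 12569 genes with introns. Of those genes, 42 had a share at least as high as cob and 179 at least as high as cox1. The number of introns was below the median of 4 per gene with introns elsewhere.

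**Figure D3:**
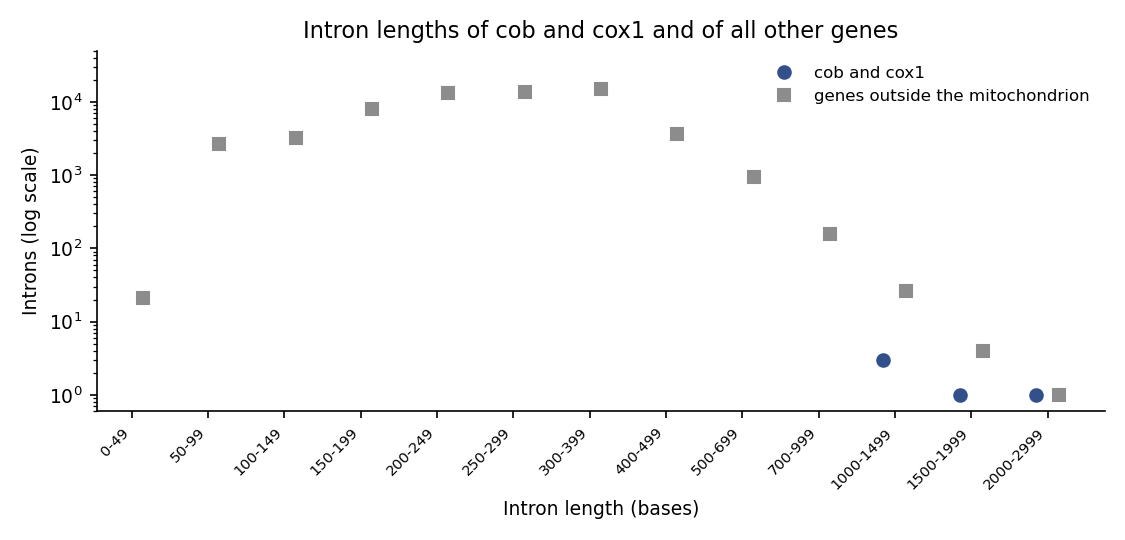
Number of introns by length in bases, on a log scale, for cob and cox1 (circles) and for genes outside the mitochondrion (squares). The 5 introns of cob and cox1 all fall at 1000 bases or more, where 31 of 60574 other introns lie.

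A gene inside the span of another was found nowhere else in the annotation. The 6 nested pairs were also its only overlapping gene pairs of any kind. Models outside the mitochondrion come mostly from AUGUSTUS, and whether it allows genes to overlap was not tested. The 6 frames were 0.0390% of the 15369 genes. Genes that share coding bases with another were rarer still, orfM226 with cob and orfM369 with cox1, 4 genes or 0.0260%. Since the members were chosen for their nested positions, these shares describe the choice.

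The other mitochondrial genes had no introns. Complex I, the NADH dehydrogenase, had 7 genes (nad1, nad2, nad3, nad4, nad4L, nad5 and nad6) of 303 to 1941 coding bases. Complex IV had cox2a and cox3 beside cox1, with 435 and 882 bases, and complex V, the ATP synthase, had atp6 and atp9 with 921 and 222. No gene carried a name of the ribosomal list. Complex III was represented by cob alone. The coding regions of cob and cox1 were within the range of complex I, and their introns made their spans the longest of the 22.

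**Figure D4:**
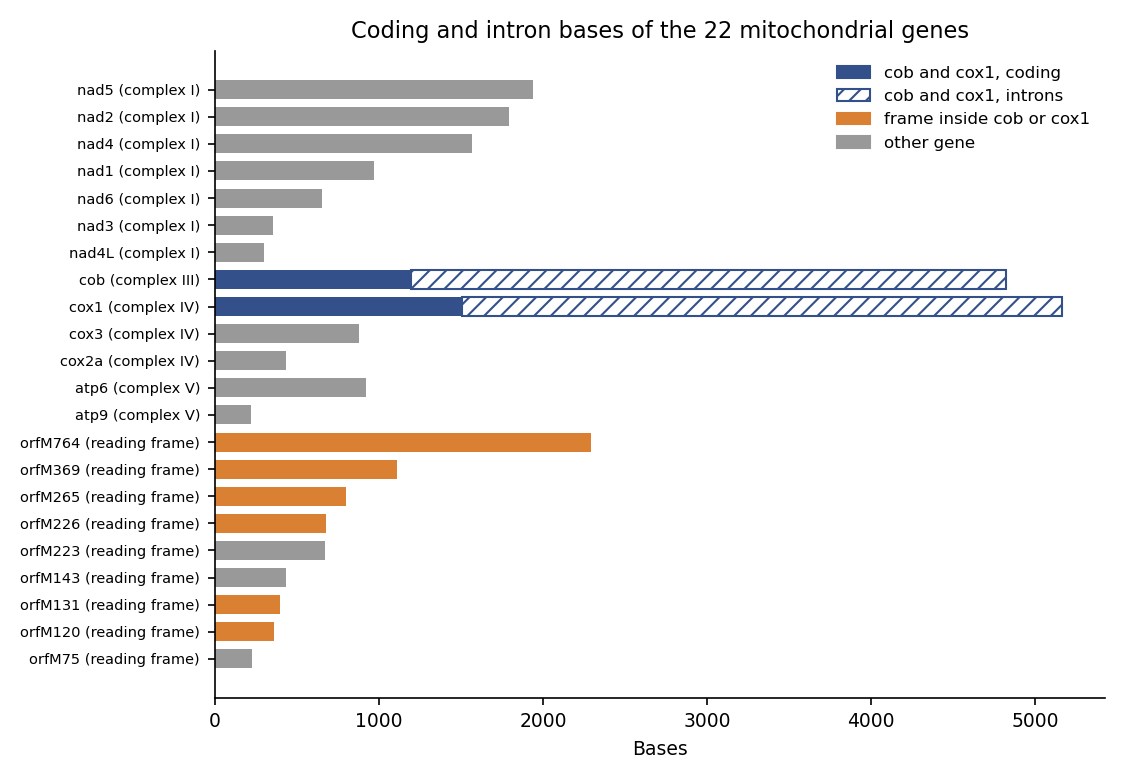
Coding bases (filled bars) and intron bases (hatched) of the 22 mitochondrial genes, grouped by role. The spans of cob and cox1, 4820 and 5165 bases, exceed all others, and orfM764 has the longest coding region with 2292 bases.

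The spans of cob and cox1 took up 9985 of the 41733 bases of the mitochondrial sequence, 23.9%. Their introns made up 17.4% of the sequence and their own coding segments 6.48%. The 6 frames held 5640 bases, or 28.6% of all mitochondrial coding bases, against 13.7% in cob and cox1. The hosts lay near each other, with cox2a (CzMTg00040, 6254 to 6688), a piece of cytochrome c oxidase subunit 2, between them. The gaps were 279 bases from cob to cox2a and 534 from cox2a to cox1. Behind cox1, nad2 (CzMTg00080, 12570 to 14363) followed after 182 bases.

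Another 2 frames described as hypothetical LAGLIDADG homing endonucleases, orfM143 (CzMTg00330, 38634 to 39065) and orfM223 (CzMTg00340, 40040 to 40711), lay in no annotated gene. They had 432 and 672 bases, against 363 to 1110 bases in the 5 LAGLIDADG frames inside cob and cox1. Upstream of orfM143, 4264 bases without a gene line separated it from nad4, and 974 bases lay between the pair. The gene lines of the file are all protein-coding models, and genes for RNAs were not analysed here. The remaining frame, orfM75 (CzMTg00170, 24523 to 24750), is described as a hypothetical protein and had 228 bases.

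The plastid had 73 gene lines, none with an annotated intron, and 1 carried a description of this kind. It was orfC1238 (CzCPg01200, minus strand, 127427 to 131143), described as similar to an intronic reverse transcriptase, with 3717 bases. It lay between psbE, 730 bases away, and exon 1 of psaA, 1067 bases away. The file annotates psaA as separate trans-spliced exons. Exon 1 thus counts as 1 of the 73 gene lines, and the breaks within psaA are not counted as introns.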

How the data were processed

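The processed data were 1 gene annotation in GFF3 format for the whole series. Per the file headers and source column, the deposited positions of gene, mRNA and CDS lines are bases counted from 1 on 220 sequences, and the models were predicted with AUGUSTUS or made manually. STAR 2.4.0j and Cuffdiff 2.2.1 are listed, without a role, per the submitters' processing notes. The genome build is not given in the sources used here, and mitochondrial genes are marked for genetic code 22. Read depth and values per sample were not analysed here.

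Introns, phases, overlaps, registers and the labels of shares were computed with Python 3.11.15, NumPy 2.4.6 and SciPy 1.17.1. The code for intron lengths, phases, coding lengths and the register against a host's first segment was tested on simulated plus-strand gene models. Overlaps and registers against other segments were not tested in this way. An intron's phase came from the phase column of the coding segment behind it. Registers compare frame starts with host codons modulo 3. No test was made, because positions have no replicates and the members were chosen for them. The members and lists were chosen with earlier results of these data known. Other mitochondrial genes were named by role list, with values for neighbours of cob or cox1 and for reading frames. Plastid genes with an intron-type description were named where they numbered 5 or fewer.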

Additional observations from a re-analysis of the deposited data

How the results depend on the processing

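Of 25 alternative values, 6 moved away from the value reported. The other 19 were equal to it or close. Several of these 19 could not have moved, so their number does not measure how stable the results are. The mRNA line equals the gene line in all 15369 genes, and no host intron is near the minimum of 30 bases in 1 alternative. In an intron with 1 frame, the longest frame alone is that frame. Host segments are whole numbers of codons, so summed lengths give the same registers. A count within 1.5 times is taken as close, which takes in the 6 frames against 4 below. A confidence level of 95% served only to label a share as moved or close. Bases of 1 intron or span are not replicates, so this label is no test of a result. The number of introns that hold a whole frame was 3 of 5, because orfM226 and orfM369 begin in a coding segment, and it was 5 when any base of a frame counted. With more than 90% of a frame inside as the rule, an alternative chosen after seeing the data, 6 frames counted as inside an intron, against 4. With the longest frame alone, orfM131 filled 37.5% of cox1 intron 2. With intron bases outside the frames only, the intron share of the span was 13.8% in cob and 19.5% in cox1, and the largest remaining intron had 384 bases in cob (intron 1 in place of intron 2) and 443 in cox1. These changes follow from how the alternatives are built. The count of frames in register was 3 against the preceding and 3 against the following segment, with 2 frames, orfM120 and orfM265, in both. Leaving out the last 3 bases of each frame moved the filled share of cox1 intron 2 to 71.3% and the others by less. No paired analysis was possible because no value of any sample was used and each condition had 1 library. Depth limits nothing here, and the boundaries of the models have no stated error.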

Other observations

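The number in a frame's name was 1 below its count of codons, last codon included, in 10 of the 11 frames named in this way in the mitochondrion and plastid. The exception was orfM764, with 764 codons. The 3 bases after it still lie in cob intron 2. Whether its last codon is a stop was not tested.

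The gene identifiers of orfM369 and orfM120 end in 53 and 57, between 50 for cox1 and 60 for orfM131. The other 20 mitochondrial identifiers are multiples of 10. Such numbers are not particular to these frames, since 777 of the 15369 identifiers in the whole annotation are not multiples of 10.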
